A study of Oryza sativa Japonica Group with 27 samples.

Results

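Aquaporins of the plasma membrane and of the tonoplast, the membrane around the plant vacuole, were followed in libraries made from rice shoots. The members were chosen by identifier from 10 named genes, 7 plasma membrane intrinsic proteins (PIPs) and 3 tonoplast intrinsic proteins (TIPs), and 9 of the 10 had rows in the tables, which hold 42132 transcripts of 35679 loci. They were PIP1-1 (OS02T0666200), PIP1-2 (OS04T0559700), PIP1-3 (OS02T0823100), PIP2-1 (OS07T0448800), PIP2-2 (OS02T0629200), PIP2-6 (OS04T0233400), PIP2-7 (OS09T0541000), TIP1-1 (OS03T0146100) and TIP2-1 (OS02T0658100), whose names are also written with a semicolon, as in PIP2;7. TIP2-2 (OS06T0336600) was not analysed here. The 9 loci have 15 transcript rows, and their counts were summed per locus.

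Aquaporins are channels that let water, and for some members other small neutral solutes, cross a membrane. PIPs carry water across the plasma membrane and fall into the PIP1 and PIP2 groups. PIP2 proteins are active water channels when made alone in frog oocytes, while many PIP1 proteins depend on a PIP2 partner to reach the plasma membrane. TIPs let the vacuole exchange water with the cytosol. In rice, PIP1-3, also known as RWC3, and TIP2-1 are known as genes expressed mainly in roots, and the others are known to be expressed in leaves as well.

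The libraries came from Structure-seq2, a method in which dimethyl sulfate (DMS) methylates unpaired bases of RNA and reverse transcription stops there. All 14 libraries were made from poly(A)-selected RNA of shoots of 14-day-old japonica rice, cultivar Nipponbare, germinated in dishes and moved to soil, and the labels do not say that replicates came from separate plants. The standard protocol (90 °C denaturation with salt, reverse transcription at 55 °C, gel purification) had 2 libraries without DMS and 2 with DMS, and the biotin variation, which adds biotin and purifies on streptavidin, had 2 and 2 likewise. Another 6 kinds without DMS had 1 library each. In low RT denaturation the RNA was denatured at 65 °C and no salt was added, and in low RT reaction reverse transcription ran at 50 °C. Circligase and Ex Taq replaced the ligase and the PCR enzyme, agarose replaced the final gel, and biotin only added biotin while keeping gel purification. Every library was sequenced with a standard primer, and 13 of them, all but Circligase, also with a custom primer. All p-values here therefore measure how far these libraries spread, which may be technical.

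A library had 29777 to 410068 counts by the standard primer and 27118 to 468337 by the custom one. In CPM (counts scaled to a common library size with TMM factors), 1 count was worth 2.40 to 22.3 in the standard-primer libraries, and a count of 0 allowed up to 7.19 to 67.0 CPM (3 counts), which covers counting error only. The shallowest library with both primers was replicate 1 of the biotin variation without DMS, and it stood apart for several aquaporins, so results that rest on it are also given without it. The 9 aquaporins together took 0.396% to 1.60% of the counts of a standard-primer library. The tissue label was checked on marker loci, and 6 of 6 photosynthetic shoot markers had counts in every library (summed level 42594 to 98890 CPM). Of 3 root markers 2 were at 0 in every library, and the 3 together had 0 to 8 counts with the standard primer and 0 to 10 with the custom one. The third, OS02T0745100 (Lsi1), is itself in the further list of aquaporin loci described below.

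The 2 tables did not count loci with several transcripts alike. At 2-transcript loci with 200 counts or more, split evenly (0.45 to 0.55 each), the variance of the split between them was 0.171 of the binomial variance in the standard-primer table (378 loci) and 1.27 of it in the custom-primer table (203 loci). Over loci with at least 200 standard-primer counts, the median ratio of custom to standard counts was 1.75 for loci listed with 1 transcript, 0.984 for those with 2 and 0.755 for those with 3. When only the most-counted transcript was taken in the standard-primer table, these ratios were 1.75, 1.78 and 1.82. PIP1-2, PIP1-3, PIP2-1 and TIP2-1 are listed with 1 transcript, PIP1-1, PIP2-2, PIP2-6 and PIP2-7 with 2, and TIP1-1 with 3. Counts of different aquaporins were therefore set side by side with the most-counted transcript in the standard-primer table, while CPM of 1 aquaporin across libraries are locus sums. Transcript lengths were not used here, so such comparisons between genes are of counts and give no order of levels per length, and reads that match near-identical aquaporins may have been split or counted again in a way the sources used here do not give.

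Among the PIP1 genes, PIP1-1 had 447 to 1794 CPM over the 14 standard-primer libraries (median 775.8). PIP1-2 had 149.9 to 476 CPM (median 292). Both had counts in every library. PIP1-1 measured 708 and 1220.1 CPM in the 2 standard libraries without DMS, a wide spread, while PIP1-2 measured 267 and 296 CPM there. PIP1-3 lay lower, with 0 to 20 counts per library (0 to 150.3 CPM, median 30.5), and no count in replicate 1 of the biotin variation without DMS. Its highest values were 150.3 CPM in replicate 2 of that kind, 144 CPM in agarose and 108 CPM in DMS-treated replicate 2 of the biotin variation, and these rest on 20, 8 and 15 counts.

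Among the PIP2 genes, PIP2-7 stood above the rest in counts. It measured 2940 and 3949 CPM in the standard libraries without DMS and 2839 and 4505 CPM in those with DMS. The DMS-free libraries of the biotin variation measured 1474 and 11309 CPM, and its DMS-treated ones 13829 and 13778 CPM. Of the single libraries, Circligase had 5957 CPM, low RT denaturation 3065 CPM, agarose 2785 CPM, biotin only 2717 CPM, low RT reaction 1787 CPM and Ex Taq 1566 CPM. Thus 3 of the 4 biotin variation libraries lay above every other library, and the remaining one lay below every other. PIP2-6 had 44.7 to 653 CPM (median 364), PIP2-1 89.4 to 245 CPM (median 159.7) and PIP2-2 67.0 to 359.9 CPM (median 148). The lowest PIP2-6, PIP2-1 and PIP2-2 values all fell in the shallowest library, where they rest on 2, 4 and 3 counts.

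Of the TIPs, TIP1-1, a tonoplast water channel, had counts in every library, 736 to 2284 CPM (median 1451). TIP2-1 had 1 count in standard without DMS replicate 1, 1 and 3 counts in the DMS-treated libraries of the biotin variation, and 0 in the other standard-primer libraries. It had no count in any of the 13 custom-primer readings. At these depths the data allow no statement on differences of TIP2-1 between kinds of library, and it had too few counts to be tested.

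**Figure D1:**
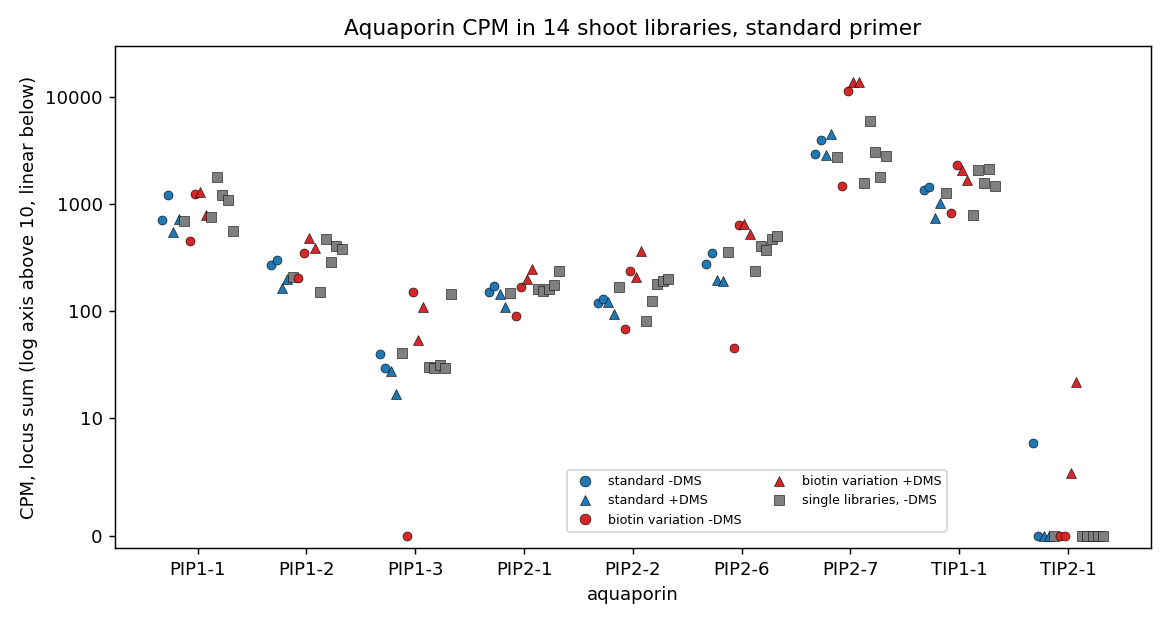
CPM (locus sums, standard primer) of the 9 aquaporins in each of the 14 libraries, with 1 point per library on an axis that is logarithmic above 10 and linear below. Loci with several listed transcripts were not counted like those with 1, so the points compare libraries within a gene and not genes with each other. PIP2-7 reached 13829 CPM in the biotin variation with DMS, and PIP1-3 and TIP2-1 lay at 0 to 150.3 and 0 to 21.6 CPM.

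PIP2-7 also took the most counts within the group. By most-counted transcript it had more counts than every other aquaporin in 14 of 14 standard-primer libraries. By locus sum PIP2-7 did so in 13 of 14 standard-primer libraries and in 12 of 13 custom-primer readings. The standard-primer exception was low RT reaction, where PIP2-7 had 366 counts and TIP1-1 435. In the standard-primer libraries the share of PIP2-7 in the aquaporin counts was 48.1% and 50.8% in standard without DMS, and 56.8% and 64.3% in standard with DMS. For the biotin variation it was 44.2% and 67.0% when DMS was omitted and 71.4% and 74.0% when it was used. The shares with DMS were above those without it in the standard protocol, and in the biotin variation likewise, and the custom-primer readings had the same order, with 57.7% and 55.6% against 64.2% and 70.9% in the standard protocol, and 29.3% and 74.9% against 78.8% and 83.5% in the biotin variation. The shallowest library gave the 44.2% and the custom-primer 29.3%, from 77 and 123 aquaporin counts. By exact Clopper-Pearson 95% intervals for counting error, 67.0% (64.2% to 69.8%) and 71.4% (69.3% to 73.5%) overlapped with the standard primer. With the custom primer, 74.9% (73.0% to 76.8%) and 78.8% (77.3% to 80.2%) did not. In the standard protocol the nearest shares without and with DMS overlapped with both primers. They were 50.8% (47.8% to 53.8%) and 56.8% (52.2% to 61.3%) with the standard primer, and 57.7% (53.8% to 61.6%) and 64.2% (60.7% to 67.5%) with the custom one. Since 2 libraries against 2 allow no exact test that can pass 0.05, these shares are a description. Among the single libraries the share was lowest in low RT reaction, at 29.3% (exact Clopper-Pearson 95% interval 25.9% to 32.8%) and at 29.0% with the custom primer (26.4% to 31.6%), below the other single libraries, which ran from 40.1% to 50.8% with the standard primer. That kind has no replicate. TIP1-1 had 25.8% of the aquaporin counts there, beside a median of 17.5% over the 6 single libraries.

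**Figure D2:**
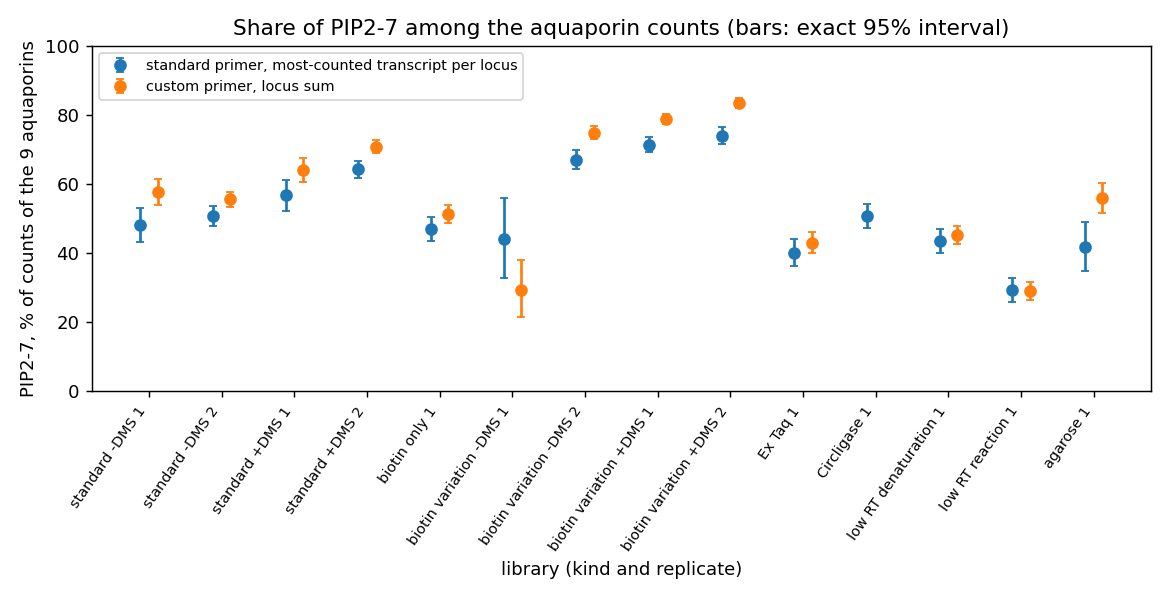
Share of the counts of the 9 aquaporins taken by PIP2-7 in each library, in percent, with exact 95% binomial intervals for counting error. The share ran from 29.3% in low RT reaction to 74.0% in biotin variation with DMS replicate 2 by the standard primer, and by the custom primer from 29.0% to 83.5%.

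The root-predominant genes had few counts in these shoots. PIP1-3 and TIP2-1 both had fewer counts than each of the other 7 aquaporins in 12 of 14 standard-primer libraries by most-counted transcript, in 14 of 14 by locus sum and in 12 of 13 custom-primer readings. Together they had 120 of the aquaporin counts with the standard primer (1.02%), where the other 7 genes had 11649. With the custom primer they had 40 counts (0.209%) against 19061. All 40 were of PIP1-3, which fell with the custom primer as described below, so the 2 percentages are not compared. Both genes are listed with 1 transcript, and locus sums in the standard-primer table do not count such loci like those with several. The exceptions among the most-counted transcripts came from PIP1-3, which had 20 counts in replicate 2 of the biotin variation without DMS, where PIP2-2 had 19, and 8 counts in agarose, where PIP2-2 also had 8. The exception with the custom primer was the shallowest library, where PIP2-6 had no count. With bulk RNA, fewer cells of a type and less RNA per cell cannot be told apart.

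The biotin variation was compared with the standard protocol over the 8 replicated libraries. All 8 aquaporins tested had a positive log2 change, but none passed the edgeR test, and 1, PIP2-7, had an unadjusted p under 0.05. Over all loci, 2.98% (165 of 5530) were called and 1296 had an unadjusted p under 0.05. The median log2 change of the 8 was 0.70, and that of all loci was -0.33. PIP2-7 averaged 10098 ± 5868 CPM (SD, n = 4) in the biotin variation and 3558 ± 806 CPM (SD, n = 4) in the standard protocol, and its log2 change was 1.33 (SE 0.42; adjusted p = 0.0738 by edgeR's quasi-likelihood test). Its groups overlapped through 1 library, the shallow replicate 1 without DMS. Left without that library, the biotin variation averaged 12972 ± 1441 CPM (SD, n = 3), from 11309 to 13829 CPM, above all standard-protocol libraries, and the log2 change was 1.82 (edgeR adjusted p = 0.00262). When each of the other 7 libraries was left out instead, PIP2-7 did not pass, with log2 changes of 0.945 to 1.42 (edgeR adjusted p from 0.0980 to 0.288).

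That library was set apart partly by its aquaporin values, so results without it depend on that choice and are a description. The biotin variation then holds more libraries with DMS than without, and the CPM ranges below do not account for DMS. Without that library, 4 of the 8 aquaporins passed the edgeR test, all higher in the biotin variation, where 10.03% of all loci were called (554 of 5521), 299 of them higher. These were PIP2-7, PIP2-6 (log2 change 1.36), PIP1-3 (1.99) and TIP1-1 (0.91). The median log2 change of the 8 was then 1.06, and that of all loci was -0.13. PIP2-6 measured 518 to 653 CPM in the 3 remaining biotin variation libraries and 189 to 343 CPM in the 4 standard libraries, and these ranges did not overlap. The library left out held the low values that made the groups overlap, 44.7 CPM for PIP2-6 and 827 CPM for TIP1-1. TIP1-1 measured 1663 to 2284 CPM against 736 to 1428 CPM, also without overlap. PIP1-3 measured 53.5 to 150.3 CPM against 16.8 to 39.3 CPM, from 10 to 20 counts against 5 to 8. In the custom-primer readings of the same libraries its ranges overlapped, at 7.08 to 23.6 CPM against 4.14 to 16.3 CPM. They rest on 1 to 4 counts against 2 to 5, too few for PIP1-3 to be tested there. With the standard primer and without that library, 6 of the 8 were higher with no overlap, beside 13.3% of all loci. With all 8 libraries, PIP2-6 had a log2 change of 0.84 (SE 0.56), PIP1-3 of 1.55 (SE 0.77) and TIP1-1 of 0.55 (SE 0.37), and the edgeR adjusted p ran from 0.228 to 0.372 over the 3.

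The other members had log2 changes of 0.20 (PIP1-1), 0.56 (PIP1-2), 0.23 (PIP2-1) and 0.84 (PIP2-2), with edgeR adjusted p from 0.370 to 0.837. For PIP1-1 and PIP2-1 the sign was not stable, since without the filter on low counts the log2 changes were -0.12 and -0.09. In the custom-primer readings, a second reading of the same libraries, PIP2-7 passed with a log2 change of 1.59 (edgeR adjusted p = 0.000898), and TIP1-1 with 1.07, where 11.7% of all loci were called. PIP2-7 measured 3036, 3152, 2513 and 3586 CPM in the standard protocol there, and 800.03, 10865, 12752 and 15431 CPM in the biotin variation. The biotin-only library, which kept gel purification, had 2717 CPM of PIP2-7 with the standard primer and 2316 CPM with the custom primer, below the lowest standard-protocol library in each reading, and it has no replicate.

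**Figure D3:**
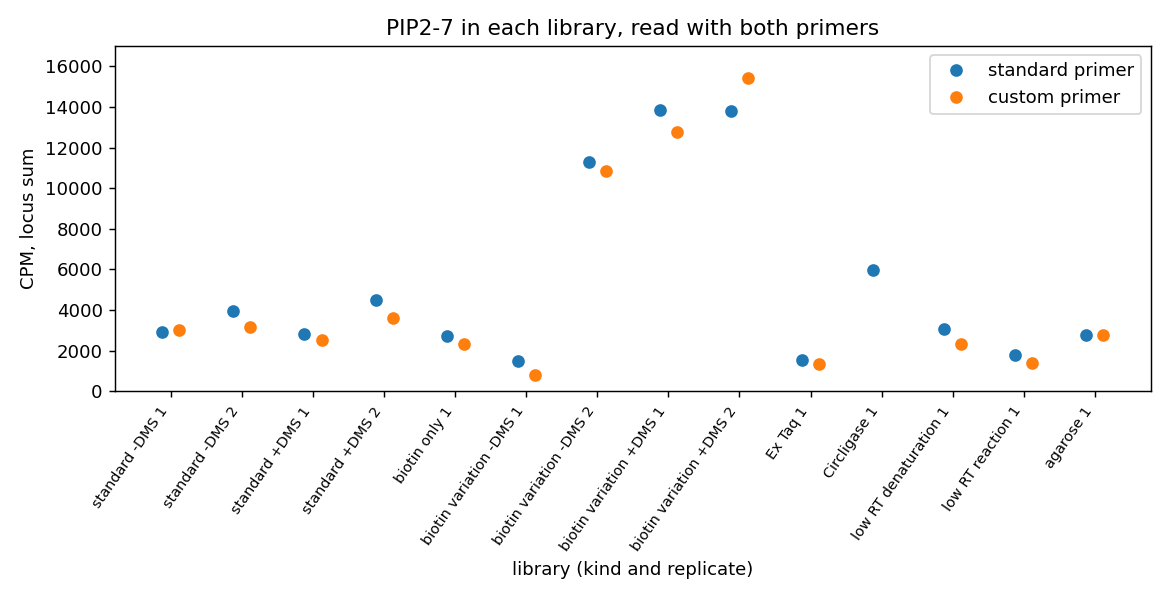
PIP2-7 CPM (locus sums) in each library, with the standard-primer and the custom-primer reading side by side. Replicate 2 without DMS and both replicates with DMS of the biotin variation lay at 10865 to 15431 CPM in both readings, and replicate 1 without DMS lay at 1474 and 800.03 CPM.

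DMS was compared with no DMS within each protocol, in the fit of all 14 libraries. In the standard protocol none of the 8 aquaporins tested passed the edgeR test, where 0.106% of all loci did (7 of 6628, 376 at an unadjusted p under 0.05), and none of the 8 had an unadjusted p under 0.05. The log2 changes were -0.61 (PIP1-1), -0.63 (PIP1-2), -0.65 (PIP1-3), -0.37 (PIP2-1), -0.21 (PIP2-2), -0.70 (PIP2-6), 0.09 (PIP2-7) and -0.66 (TIP1-1), with standard errors of 0.47 to 1.04. Their median was -0.62, beside 0.02 for all loci. TIP1-1 measured 1352 and 1428 CPM without DMS and 736 and 1023 CPM with DMS, with an edgeR adjusted p of 0.992. Its groups did not overlap, and neither did those of PIP2-6 (275 and 343 CPM without DMS, 192 and 189 CPM with it), PIP1-2 (267 and 296 CPM, 165 and 199 CPM), PIP2-1 and PIP1-3, so 5 of 8 were lower with DMS without overlap. For PIP1-3 this rests on 5 and 8 counts without DMS (39.3 and 29.2 CPM) and 5 and 7 with it (27.5 and 16.8 CPM), a gap within counting error. Of all 6628 loci, 23.4% were lower without overlap and 1740 loci were higher without overlap. The groups of PIP1-1, PIP2-2 and PIP2-7 overlapped.

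In the biotin variation again none of the 8 aquaporins passed, where 0.136% of all loci did (9 of 6628, 1174 at an unadjusted p under 0.05), and none had an unadjusted p under 0.05. The log2 changes with DMS were 0.26 (PIP1-1), 0.61 (PIP1-2), -0.20 (PIP1-3), 0.71 (PIP2-1), 0.79 (PIP2-2), 0.67 (PIP2-6), 1.09 (PIP2-7) and 0.23 (TIP1-1), with a median of 0.64 beside 0.54 for all loci. The groups did not overlap in PIP1-2 (201 and 346 CPM without DMS, 389 and 476 CPM with it), in PIP2-1 (89.4 and 165 CPM, 198 and 245 CPM) and in PIP2-7, so 3 of 8 were higher with DMS without overlap, near the 34.6% of all loci, and they overlapped in the other 5. For PIP2-7 the replicates without DMS, at 1474 and 11309 CPM, lay farther from each other than the higher of them from either library with DMS (SE 0.58, edgeR adjusted p = 0.335). The result turned on which replicate without DMS was kept. With only the shallow replicate 1, PIP2-7 had a log2 change of 3.29, PIP2-6 of 3.76 and TIP1-1 of 1.23, and these 3 passed, under the assumption that the lone library varies like the other groups. In that fit 8.82% of all loci were called and the median log2 change of all loci was 4.32, above that of each of these 3. With only replicate 2 none of the 8 passed, beside 0.0302% of all loci, and PIP2-7 had a log2 change of 0.29.

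The DMS effect was then compared between the protocols. None of the 8 aquaporins passed, where 0.0754% of all loci did (5 of 6628, 762 at an unadjusted p under 0.05). All 8 differences were positive, as were those of 63.1% of all loci. The median of the 8 was 1.001 on the log2 scale beside 0.57 for all loci, and the difference of PIP2-7 was 1.001 (SE 0.81, edgeR adjusted p = 0.640). Over both protocols together, with protocol as a term, again none of the 8 passed, beside 0.0181% of all loci (1 of 5530, 551 at an unadjusted p under 0.05). In that fit the log2 change of PIP2-7 was 0.61 (SE 0.42, edgeR adjusted p = 0.701). These comparisons use the same libraries as those above.

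**Figure D4:**
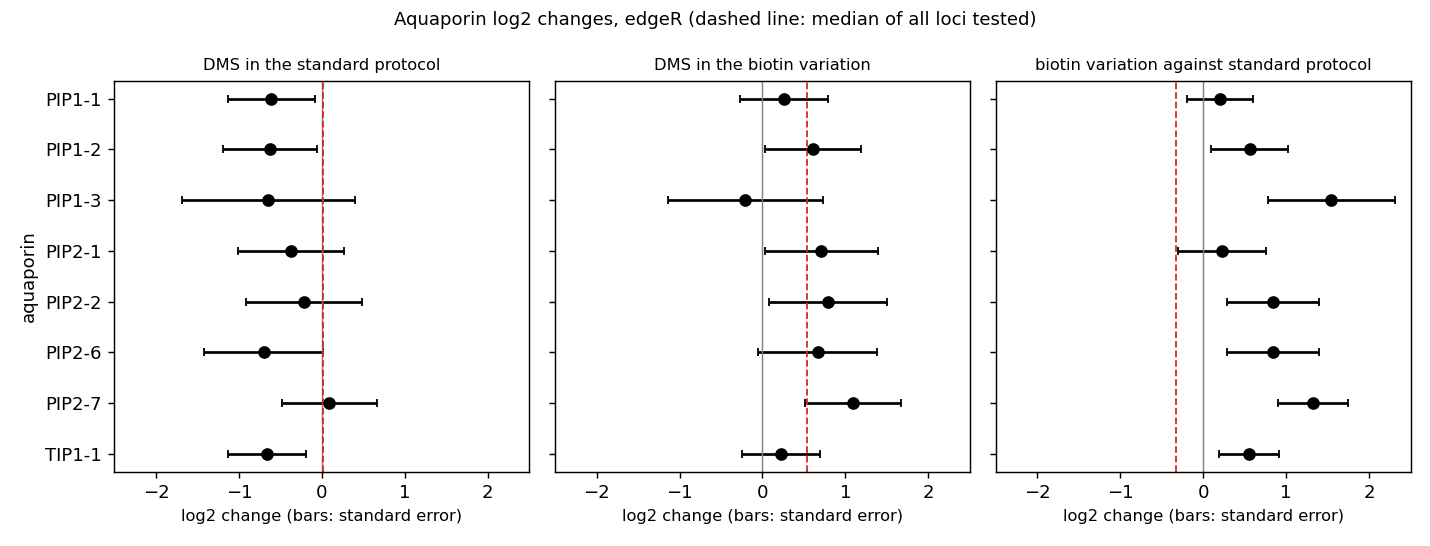
Log2 changes with standard errors of the 8 aquaporins tested, for DMS in the standard protocol, DMS in the biotin variation and the biotin variation against the standard protocol (edgeR, locus sums, standard primer), with the median of all loci as a dashed line at 0.02, 0.54 and -0.33. PIP2-7 lies at 0.09, 1.09 and 1.33, and no aquaporin passed the test in any of the 3.

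The single libraries have no replicate and were not tested. PIP1-1 had its highest value of all, 1794 CPM, in Circligase, where it rests on 249 counts. TIP1-1 had 2075 CPM in Circligase and 2124 CPM in low RT reaction, against 736 to 1428 CPM in the 4 standard-protocol libraries. Ex Taq had the lowest PIP1-2 of all (149.9 CPM) and 789.7 CPM of TIP1-1, and its PIP2-7 (1566 CPM) was lower than in each standard-protocol library. In low RT denaturation, PIP2-7 (3065 CPM) lay within the range of the standard-protocol libraries and TIP1-1 (1581 CPM) above it. Agarose had 50816 counts in all, and its PIP1-1 of 557 CPM rests on 31 counts.

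Where a locus is listed with more than 1 transcript, the tables give each its own count. PIP2-2 had the most unequal pair, with 120 counts for transcript 01 and 291 for transcript 02 over the standard-primer libraries, a ratio of 2.43. Transcript 02 was higher in 13 of 14 standard-primer libraries and in 11 of 13 custom-primer readings (88 against 183 counts). TIP1-1 had 1652 counts for transcript 01, 989 for 03 and 1185 for 05, and 01 was above both others in 14 of 14 libraries. PIP2-7 had 6729 and 6449 counts, and 01 was higher in 14 of 14 standard-primer libraries and 10 of 13 custom-primer readings. PIP1-1 had 1286 and 1264 counts, equal in 5 of 14 libraries, and PIP2-6 502 and 452, equal in 4. With the low variance of the split described above, counts of 2 transcripts in the standard-primer table are not independent of each other, and they are not read here as the amount of each transcript.

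The custom primer was compared with the standard primer over the 13 libraries read with both. By locus sums, 6 of the 8 aquaporins tested fell with the custom primer and none rose, where 39.4% of all loci were called (1629 higher, 1874 lower of 8897). The median log2 change of the 8 was -0.54, and that of all loci was 0.13. PIP1-3, the root-predominant PIP1, changed by -1.77 on the log2 scale (SE 0.29, edgeR adjusted p = 4.68e-06), with 111 counts over the standard-primer readings and 40 over the custom-primer readings, lower in 12 of 13 libraries. In replicate 2 of the biotin variation without DMS it had 20 counts with the standard primer and 1 with the custom primer. PIP2-2 changed by -0.89 on the log2 scale (SE 0.16, edgeR adjusted p = 2.93e-05) and was lower in 11 of 13 libraries. These 2 genes kept the sign and passed the test in every alternative in which they were tested.

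For the others the call turned on how loci with several transcripts are counted. By locus sums TIP1-1 had -0.93, PIP2-6 -0.56, PIP1-1 -0.53 and PIP2-7 -0.35 on the log2 scale, and all passed. With the most-counted transcript in the standard-primer table, TIP1-1 had -0.06, PIP2-6 0.02 and PIP1-1 0.09, none of which passed, while PIP2-7 turned to 0.26 and passed, PIP1-2 turned from 0.02 to -0.33 and passed, and PIP2-1 turned from 0.14 to -0.22. In that setting 15.6% of all loci were called, and it was chosen after seeing the data. On the loci listed with 1 transcript alone, another setting chosen then, 17.7% of loci were called, and of the 3 aquaporins tested PIP1-3 (-2.09) and PIP1-2 (-0.30) passed. In raw totals, PIP1-3 had 0.36 custom counts for each standard count. Loci listed with 1 transcript and with 50 or more but under 200 standard-primer counts, as PIP1-3 has, had a median ratio of 1.65 (quartiles 1.27 and 1.88, 3260 loci). By the same ratio PIP1-2 had 1.31 and PIP2-1 1.41.

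**Figure D5:**
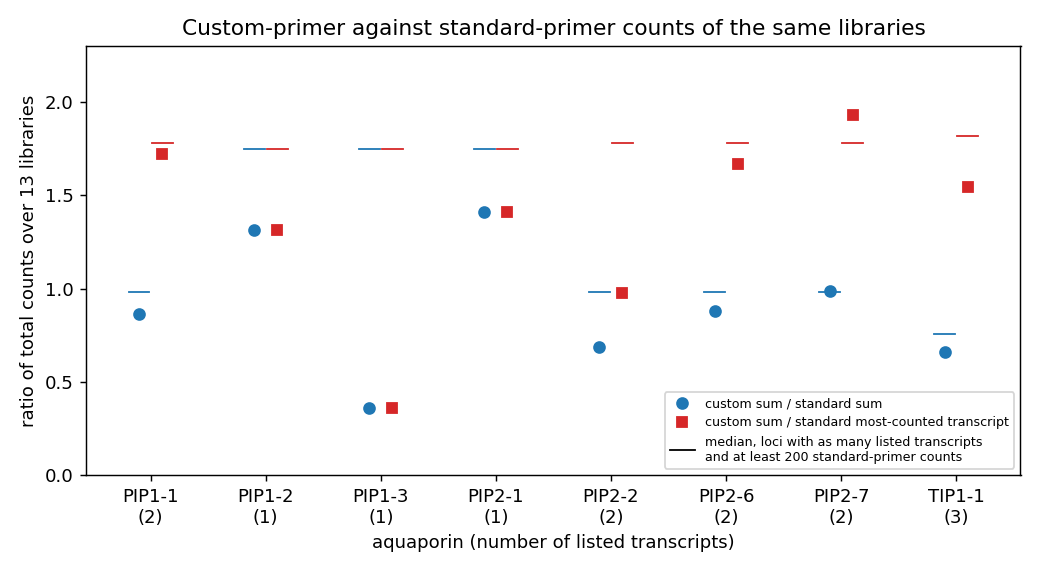
Ratio of custom-primer to standard-primer total counts over 13 libraries for the 8 aquaporins with counts in both tables, by locus sum (circles) and with the most-counted transcript in the standard-primer table (squares), with short lines at the median ratio of loci with as many listed transcripts and at least 200 standard-primer counts. PIP1-3, which has fewer counts than that, lies at 0.36, below its line at 1.75, and PIP2-7 moves from 0.987 to 1.93 between the ways of counting.

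A further list of 19 loci from general knowledge of the rice aquaporin family, whose names the tables used here do not pair with the identifiers, had rows for all 19. Of these 6 had a mean of at least 10 counts per standard-primer library and 1 had no count. None of the 7 tested passed in any of the 5 comparisons of protocols and DMS, where 0.0181% to 2.98% of all loci were called. With the custom primer 5 of 8 tested fell, where 1874 of all 8897 loci fell and 39.4% were called in either direction. The most counted of them, OS05T0231700, measured 379 ± 146 CPM (SD, n = 2) in standard without DMS, 157 ± 49.5 CPM (SD, n = 2) in standard with DMS and 733 CPM in Ex Taq. In the biotin variation it measured 56.4 ± 79.7 CPM without DMS and 106 ± 69.0 CPM with DMS (SD, n = 2 each). The pair without DMS rests on 0 and 15 counts, with the 0 in the shallowest library, where it allows up to 67.0 CPM. The log2 change of OS05T0231700 against the standard protocol was -1.53 (SE 0.67, edgeR adjusted p = 0.176), opposite in sign to PIP2-7. A value without that library is not given here. OS04T0521100 had 136 counts with the standard primer and 33 with the custom primer over the same 13 libraries, and its log2 change was -2.32 (SE 0.27, with an adjusted p of 5.22e-09 by edgeR).

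The loci whose pattern over the 14 standard-primer libraries was most like that of PIP2-7 were OS01T0686800 (Pearson r of log2(CPM + 1) 0.939, Spearman rho 0.908), OS02T0538700 (0.924 and 0.881) and OS07T0100200 (0.920 and 0.890), of 1557 loci outside the aquaporins with a mean of at least 20 counts. The median r over those loci was 0.192. Without the 2 libraries farthest from the median of PIP2-7, both of the biotin variation with DMS, r was 0.895, 0.898 and 0.853. The points share library, depth and protocol, and the likeness is a description.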

How the data were processed

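Counts per transcript are whole numbers, deposited by the authors in 1 table per sequencing primer. The submitters' processing notes list cutadapt and Bowtie2, with no version. The build, annotation and counting rule were not given in the sources used here. Of the columns, 0 match no label. The RefSeq gene table did not pair the identifiers with names, so names of members come from the rule that chose them, and no sequences or lengths were used. The members and lists were chosen with earlier results of these data known.

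Locus sums were tested by the quasi-likelihood method of edgeR 4.0.16 (with limma 3.58.1, R 4.3.3), scaled with TMM, and p-values were adjusted over all loci by Benjamini-Hochberg, called under 0.05. A locus entered a fit if 2 or more libraries had 10 or more counts. The DMS effects of each protocol, and their difference, came from a fit of 14 libraries with a mean per kind. A fit of the 8 replicated libraries with terms for DMS and protocol gave the remaining pair of comparisons. The primers were compared with library as a block. A standard error is the ratio of the log2 change to the root of F. Named are all members, further aquaporin loci with a mean of at least 10 counts or past the threshold (at most 2 in each direction), and the 3 loci most like PIP2-7. Scripts were tested on simulated counts. Alternatives were other scalings (RLE, plain totals), other filters (none, or 50 counts), DESeq2 1.42.0, the first listed transcript, custom-primer counts, both primers summed, a replicate block, only the 8 replicated libraries, and each library left out. Added after seeing the data were the most-counted transcript and loci listed with 1 transcript.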

Additional observations from a re-analysis of the deposited data

How the results depend on the processing

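Leaving out each library in turn, the number of aquaporins called ran from 0 to 3 for DMS in the biotin variation and for the difference of the DMS effect, and from 0 to 4 for the biotin variation against the standard protocol. In that last comparison the 4 came without the shallowest library, where 10.03% of all loci were called. Alternatives that left out no library called 15 to 901 loci there. The number of aquaporins called was 1 with library totals alone, without the filter and with the first listed transcript. It was also 1 with the sum of both readings and with the most-counted transcript, and 2 with the custom-primer readings (11.7% of all loci called). For DMS in the standard protocol and over both protocols it was 0 under every alternative run. For the primer it was 2 on loci listed with 1 transcript, where 17.7% of such loci were called. With the first listed transcript the root-predominant genes lay below the others in 7 of 14 libraries. The cause of these differences was not tested.

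PIP2-7 kept a positive log2 change between protocols under all 18 alternatives (0.95 to 1.82) and passed in 7 of them (edgeR or DESeq2 adjusted p from 0.000898 to 0.288). Loci called ranged from 6 to 901 for that comparison, 0 to 106 and 0 to 567 for DMS in the standard protocol and in the biotin variation, 0 to 276 for their difference, 0 to 184 over both and 980 to 4096 for the primer. Scaling moved the median of all loci: for DMS in the biotin variation it was 0.54 (TMM), 0.33 (RLE) and 0.17 (plain totals), beside 0.64, 0.41 and 0.24 for the aquaporins.

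Signs turned as follows on the log2 scale, for values of which none passed the test unless the report says so. For DMS in the standard protocol, PIP2-7 was at -0.0142 with the custom-primer readings, and leaving out 1 library gave -0.941 to 0.0132 for PIP1-1, -0.397 to 0.0209 for PIP2-2 and -0.244 to 0.495 for PIP2-7. For DMS in the biotin variation, library totals alone gave -0.156 for PIP1-1 and -0.178 for TIP1-1, a minimum of 50 counts gave -0.12 and -0.144, and TIP1-1 was at -0.00289 with DESeq2, -0.207 with the custom-primer readings and -0.132 with the sum of both. PIP1-3 was at 0.0234 without the filter and 0.0293 with the replicate block, and PIP2-2 at -0.0208 with the first listed transcript. Leaving out 1 library there gave -0.27 to 1.28 for PIP1-1, -0.91 to 6.95 for PIP1-3, -0.102 to 3.76 for PIP2-6 and -0.291 to 1.23 for TIP1-1. For the biotin variation against the standard protocol, PIP1-1 was at -0.116 and PIP2-1 at -0.0906 without the filter, and PIP1-1 at -0.0101 to 0.55 with 1 library left out. For the primer, with the most-counted transcript in the standard-primer table, PIP1-1 was at 0.0904, PIP1-2 at -0.326, PIP2-1 at -0.215, PIP2-6 at 0.0197 and PIP2-7 at 0.263. On loci listed with 1 transcript PIP1-2 was at -0.303 and PIP2-1 at -0.191, and PIP1-2 was at -0.0749 with the first listed transcript and at -0.0404 to 0.0555 with 1 library left out.

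The differences between replicates 1 and 2 correlated across loci at r from -0.12 to 0.18 over 6 pairs of kinds. Counting error lowers such correlations, so they do not settle whether the replicate numbers pair the libraries. With the replicate number as a block, no aquaporin was called in the 5 comparisons of DMS and protocol (0 in each), and loci called between protocols went from 165 to 15. An order by level per length was planned and not run, since no lengths were used here. Depth limits the low genes: PIP1-3 rests on 0 to 20 counts per library and TIP2-1 on 0 to 3, and the 2 libraries per group give wide errors.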
